A study of Mus musculus with 3 samples.

Results

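Apoa1, Apoa2, Apoa4, Apob, Apoc1, Apoc2, Apoe and Apom, which encode apolipoproteins, and Mttp, which encodes the microsomal protein that loads lipid onto apolipoprotein B, were followed through single cells of embryo-like aggregates. They are 9 of the 32285 genes in the count tables and were chosen by name, as a family that visceral endoderm is known for, and all 9 had a row. Levels were measured with 10x Genomics 3' chemistry, in which reads that share a unique molecular identifier (UMI) count as 1 mRNA, in 3 libraries, 1 for each type of aggregate. BELAs (bilayered embryo-like aggregates) came from iGATA clone C6, an E14tg2a mouse embryonic stem cell line with a doxycycline-inducible GATA4, and hold a core of epiblast-like (Epi) cells under a layer of visceral endoderm-like (VE) cells. Their cells had 0.5 µg/ml doxycycline for 8 h in 2i + LIF and 16 h of N2B27 without it, were seeded at 30000 cells per cm2 and grew for 3 days in N2B27. VE cysts came from the same clone and pulse, but doxycycline was kept on for the 16 h in N2B27, and heparin (1 µg/ml) and FGF4 (10 ng/ml) were present from then on, including the 3 days after seeding. Epi cysts grew from iGATA cells without doxycycline in matrigel, for 1 day in 2i + LIF and 3 days in N2B27. BELAs and VE cysts were picked by hand as round structures of usual size, and VE cysts with a visible Epi-like core were passed over. The endoderm of both thus descends from a forced GATA4 pulse in 1 clone, and the absence of Epi cells, the longer doxycycline and the added FGF4 of VE cysts cannot be told apart.

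Apolipoproteins are the protein coats of lipoprotein particles, which carry triglyceride, cholesterol and phospholipid between cells. Apolipoprotein B is the non-exchangeable backbone of the large triglyceride-rich particles and is lipidated by the Mttp product in the endoplasmic reticulum, whereas the A-type proteins and apolipoprotein M ride mostly on high-density particles and the C-type proteins and apolipoprotein E exchange between particles. Before the placenta works, the visceral endoderm of the yolk sac makes such particles from maternal lipid and secretes them towards the embryo, and loss of Apob or of Mttp in mice is lethal with lipid-filled yolk sac endoderm.

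The genes lie at 6 places in the genome (GRCm38, the same build as mm10, GENCODE annotation). Apoa1 (chr9:46228580-46230466, plus strand) and Apoa4 (chr9:46240696-46243459, plus strand) flank Apoc3, with 10.2 kb between them. Apoe (chr7:19696109-19699188), Apoc1 (chr7:19689481-19692660) and Apoc2 (chr7:19671579-19677941) lie in this order on the minus strand, with gaps of 3.45 and 11.5 kb, the wider of which holds Apoc4. Apoa2 lies at chr1:171225054-171226379, Apob at chr12:7977648-8016835, Apom at chr17:35128997-35132050 and Mttp at chr3:138089854-138144968. Of the 9 genes 8 had a RefSeq promoter window (GRCm38.p6), and Apoc1 had none. The bases before the annotated start are shown, 5′ to 3′, for the genes on which the comparison of libraries turns: Apoa1 and Apob, which were higher in VE cells of BELAs, Apoa2, which was lower, and Apoe, which was nearly level. Only bases outside annotated genes are given. Capitals mark matches to the searched motifs, on either strand.
Apoa1, chr9:46228380-46228579, plus strand: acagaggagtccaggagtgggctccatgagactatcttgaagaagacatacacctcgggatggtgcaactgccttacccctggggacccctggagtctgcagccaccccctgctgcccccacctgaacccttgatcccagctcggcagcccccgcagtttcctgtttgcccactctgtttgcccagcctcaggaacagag
Apob, chr12:7977427-7977647, plus strand: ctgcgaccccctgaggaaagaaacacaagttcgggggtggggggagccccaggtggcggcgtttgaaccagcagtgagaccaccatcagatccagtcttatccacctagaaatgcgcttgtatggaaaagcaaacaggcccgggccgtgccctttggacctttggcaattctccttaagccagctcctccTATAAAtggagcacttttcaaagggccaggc
Apoa2, chr1:171224804-171225053, plus strand: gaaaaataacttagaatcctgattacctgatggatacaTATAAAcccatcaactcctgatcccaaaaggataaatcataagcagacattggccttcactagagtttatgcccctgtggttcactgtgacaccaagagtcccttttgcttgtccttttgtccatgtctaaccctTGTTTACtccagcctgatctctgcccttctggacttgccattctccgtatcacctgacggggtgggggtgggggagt
Apoe, chr7:19699189-19699438, minus strand: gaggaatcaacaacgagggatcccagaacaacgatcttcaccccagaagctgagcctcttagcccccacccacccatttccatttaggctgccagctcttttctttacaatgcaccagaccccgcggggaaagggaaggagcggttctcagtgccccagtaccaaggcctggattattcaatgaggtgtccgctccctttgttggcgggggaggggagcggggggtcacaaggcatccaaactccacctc
Each window's 250 bases before the start were searched on both strands for 5 short motifs, and the share of the 32851 promoter windows of all genes that held each was counted. The TATA box was searched as TATAAA, which 12.4% of all windows held. A motif of HNF4 was searched as CAAAGTCC, which 1.20% held. A motif of HNF1 was searched as GTTAAT, which 6.43% held. A FOXA motif was searched as TGTTTAC, which 3.17% held, and a GATA motif as AGATAA, which 9.99% held. In the stretches shown, Apob held a TATA box motif with its first base 31 bases before the start, Apoa2 held one 212 bases before the start and a FOXA motif 77 bases before it, and neither Apoa1 nor Apoe held any of the motifs. Over all windows of the 8 genes, some of which have several, the TATA box motif was found for 3 (Apoa2, Apob and, outside the stretch shown, Apoe), that of HNF1 for 2 (Apoc2 and, outside the stretch shown, Apoe), that of FOXA for 1 (Apoa2) and the others for 0. These are matches of letters in short windows and say nothing of binding.

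Cells with at least 4000 detected genes and at most 10% mitochondrial UMIs were kept. A cell was assigned to VE when its UMIs of Gata6, Sox17, Dab2 and Cubn outnumbered those of Pou5f1, Sox2, Nanog and Fgf4, and to Epi otherwise. This gave 542 VE and 868 Epi cells in BELAs, 577 VE and 48 Epi cells in VE cysts, and 1 VE and 656 Epi cells in Epi cysts, with no barcode shared between libraries. Median depth was 90251 UMIs per VE cell in BELAs and 56914 in VE cysts. The VE cells so defined also carried RNA of parietal endoderm, the extraembryonic endoderm that lays down Reichert's membrane: the 13 parietal markers summed to 10349 CPM (UMIs of a gene out of 1000000 UMIs of the pooled cells) in BELAs and 24325 CPM in VE cysts, with 10 of the 13 lower in BELAs by 2-fold or more. Of 9 markers of the anterior visceral endoderm (AVE), a signalling population that helps to set the body axis, 5 were higher in BELAs by that margin. Markers of epiblast, 8 genes of which 4 were used to assign cells, summed to 777 and 275 CPM in VE cells, with 2 of 8 higher in BELAs. What part any of these markers has in the results below was not tested, apart from the comparisons made within them. Of 7 liver markers, Alb, Serpina1a, Cyp3a11 and Tat were at 0 in both, and the list summed to 6.29 CPM in BELAs and 32.4 in VE cysts, nearly all of it Fabp1 (5.78 and 32.2 CPM), while the 10 blood and macrophage markers summed to 1.27 and 2.68 CPM. VE is therefore used below for cells assigned by the 8 lineage genes, with no claim that they are 1 cell type.

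All 9 genes were at least 2-fold higher in VE than in Epi cells, in BELAs, where 13.8% of all genes tested were, and in VE cysts, where 20.0% were. A gene is counted as 2-fold different here and below when the ratio of levels, with 5 CPM added to each, reaches 2, and genes with at least 5 CPM in either group are the background. The 9 genes fell into a group that was close to absent from Epi cells and a group that was not. In Epi cells of BELAs, Apoa1, Apoa2, Apoa4, Apob, Apoc2 and Apom stood at between 0.676% (Apoa4) and 1.46% (Apoa2) of their VE level, the highest of them at 3.01 CPM (2.62 to 3.44, Apoa1). Apoc1, a small surface apolipoprotein, stood at 23.8% of its VE level there (56.1 CPM, 54.4 to 57.9), Apoe at 14.0% (733 CPM, 727 to 740) and Mttp at 11.1% (11 CPM, 10.2 to 11.7). The same 3 genes were found in the Epi cyst library, which held 1 VE cell, at 29.3 (27.7 to 31), 251 (247 to 256) and 6.70 CPM (5.93 to 7.54), while Apoa4 and Apoc2 had 0 UMIs in its Epi cells, which allows up to 0.0734 CPM. Apoe was thus 2.92-fold higher (2.85 to 2.98) in Epi cells of BELAs than in Epi cells of Epi cysts, and its 245 CPM (231 to 261) in the 48 Epi cells of VE cysts overlapped the level of Epi cysts. Intervals are 95% and cover counting error, since each condition was 1 library and cells are no replicates, so no test between conditions was possible.

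**Figure D1:**
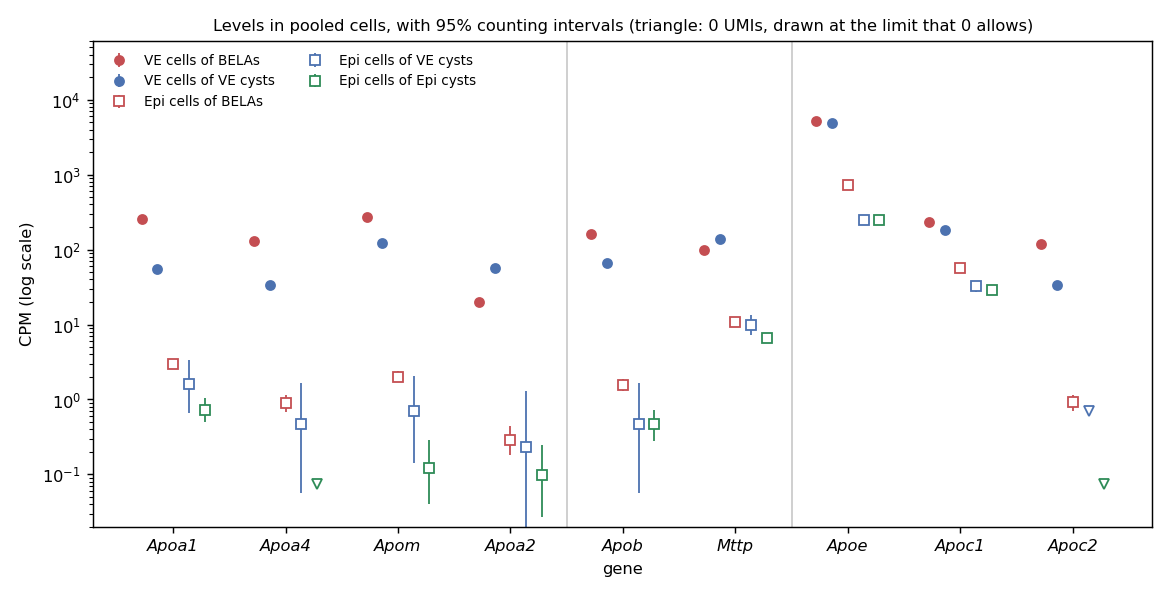
Level of each gene in VE cells (filled circles) and Epi cells (open squares) of the 3 libraries, in CPM on a log axis, with 95% Poisson intervals that are often smaller than the symbol. From left to right stand the high-density type proteins, Apob with Mttp, and the exchangeable proteins. Apoa2 and Mttp are the genes whose VE level was higher in VE cysts, at 56.7 and 139 CPM, than in BELAs, at 20.0 and 98.6 CPM.

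The central comparison set VE cells that had grown around an epiblast-like core in BELAs against VE cells grown alone in VE cysts. Of the 9 genes, 5 were at least 2-fold higher in BELAs (Apoa1, Apoa4, Apob, Apoc2 and Apom), where 1.62% of 9795 genes were, and 1 was at least 2-fold lower (Apoa2), where 2.93% were. These shares stand for 159 and 287 genes, of which 35.7% were higher, or 49.2% after median-of-ratios scaling. The median log2 ratio of the 9 genes was 1.11, against −0.13 over all genes tested.

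Among the high-density type proteins, 3 were higher in BELAs and 1 lower. Apoa1, the main protein of high-density lipoprotein, stood at 259 CPM (255 to 264) in VE cells of BELAs and 55.9 CPM (53.4 to 58.4) in those of VE cysts, a ratio of 4.64 (4.43 to 4.87). Apoa4, which lies near it on chromosome 9 and coats lipid particles of the gut in the adult, stood at 131 (128 to 134) and 34.2 CPM (32.3 to 36.2), a ratio of 3.84 (3.61 to 4.08). Apom, a carrier of sphingosine-1-phosphate, stood at 271 (266 to 275) and 123 CPM (119 to 126), a ratio of 2.20 (2.13 to 2.28). Apoa2, the second protein of high-density lipoprotein, went the other way, with 20.0 CPM (18.8 to 21.2) in BELAs and 56.7 CPM (54.2 to 59.2) in VE cysts, 2.84-fold lower in BELAs (2.64 to 3.06). The partners Apoa1 and Apoa2 had log2 ratios of 2.12 and −1.31. With 20 CPM added in place of 5, the log2 ratio of Apoa2 was −0.94 and no longer passed the 2-fold limit.

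Apob and Mttp act in one step of particle assembly and differed in direction. Apob stood at 162 (158 to 165) CPM in VE cells of BELAs and 66.2 (63.5 to 68.9) in those of VE cysts, a ratio of 2.45 (2.34 to 2.56). Mttp stood at 98.6 (96.0 to 101) and 139 CPM (135 to 143), 1.41-fold lower in BELAs (1.36 to 1.46), which is short of 2-fold. Without the quartile of BELA VE cells with the highest sum of AVE markers, the log2 ratio of Apob went from 1.23 to 0.93, below the 2-fold limit, and that of Apoa1 from 2.12 to 1.41.

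The 3 genes that lie together on chromosome 7 did not change together. Apoc2, the cofactor of lipoprotein lipase, stood at 119.9 (117 to 123) and 33.7 CPM (31.8 to 35.7), a ratio of 3.55 (3.34 to 3.78). Apoc1 stood at 236 (232 to 239.7) and 183 CPM (179 to 188), a ratio of 1.29 (1.25 to 1.33). Apoe, the ligand for receptors of the low-density lipoprotein family, stood at 5222 (5202 to 5241) and 4816 CPM (4793 to 4839), a ratio of 1.08 (1.08 to 1.09). Apoc2 and Apoe, the members on either side of Apoc1, thus differed between the libraries by 3.55-fold and 1.08-fold.

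Other genes of lipoprotein biology were counted in 6 lists of 93 genes in all, 34 of them under 5 CPM in both libraries. Of the other 59, 1 was at least 2-fold higher in VE cells of BELAs than in those of VE cysts, where 1.62% of all genes were, and 4 were lower, where 2.93% were. Their median log2 ratio was −0.17, near the −0.13 of all genes. The higher one was Soat2, which makes the cholesteryl esters packed into apolipoprotein B particles, at 122 and 42.4 CPM, a ratio of 2.88 (2.73 to 3.05). The lower ones included Abca1, the pump that loads lipid onto apolipoprotein A-I (2.88 and 16.3 CPM), Fabp1, a fatty acid binding protein of liver and gut (5.78 and 32.2 CPM), and Insig1, which holds back sterol synthesis (341 and 708 CPM). Of 10 further apolipoprotein genes 6 were under 5 CPM in both, 0 passed 2-fold, and Apoc3, which lies between Apoa1 and Apoa4, stood at 5.54 and 5.47 CPM. P4hb, the protein disulfide isomerase that is the other subunit of the Mttp complex, stood at 470 and 787 CPM, and Apobec1, the enzyme that edits Apob mRNA to its short form, at 0.128 and 0.0564 CPM. None of 24 transcription regulators passed 2-fold, but 12 were under 5 CPM in both and could not pass with 5 CPM added. At the low shares over all genes, this count does not set the regulators apart. Their log2 ratios ran from −0.84 to 0.98, the highest being that of Creb3l3, at 10.9 and 3.02 CPM. Hnf4a, a nuclear receptor known to act on many apolipoprotein promoters, stood at 24.9 and 15 CPM.

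Pooled levels do not tell how many cells carry a gene, so each VE cell was thinned at random to 40000 UMIs, which kept 514 of the VE cells of BELAs and 473 of the VE cyst cells, with 28 and 104 too shallow to thin. Apoe was found in every one of these cells. Its lowest, median and highest values were 35, 209 and 528 UMIs in BELAs and 2, 181 and 537 in VE cysts. Apoc1 was found in 99.8% of cells in BELAs and 96.8% in VE cysts, and Mttp in 88.3% and 95.3%. Their medians were 9 and 3 UMIs in BELAs and 7 and 5 in VE cysts. Apom had medians of 6 and 2 UMIs and highest values of 73 and 61.

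The remaining genes were missing from many cells. Apoa1 had a median of 0 in both libraries and highest values of 184 UMIs in BELAs and 130 in VE cysts. It was found in 46.7% of VE cells of BELAs (42.3 to 51.1%) and in 21.6% of those of VE cysts (17.9 to 25.5%), and the tenth of cells with most of it held 70.1% and 93.1% of its UMIs. Apoa4 was found in 63.8% (59.5 to 68.0%) and 38.7% (34.3 to 43.2%), with highest values of 107 and 78. Apob was found in 62.6% (58.3 to 66.8%) and 24.3% (20.5 to 28.4%), with medians of 2 and 0 and highest values of 84 and 66. Apoc2 was found in 54.9% (50.4 to 59.2%) and 28.1% (24.1 to 32.4%), with highest values of 77 and 73. Apoa2 was the rarest in BELAs, in 17.5% of cells (14.3 to 21.1%) against 29.0% (24.9 to 33.3%) in VE cysts, with highest values of 58 and 155. The tenth of cells with most of it held 89.9% and 86.1% of its UMIs. Epi cells of BELAs, thinned alike, carried Apoa1 in 9.61%, Apob in 4.49% and Apoa2 in 1.25% of cells, with Apoa4 at 2.75% and Apoc2 at 2.87%. These shares, in cells of another lineage of the same library, were below those of its VE cells. In VE cysts 44 Epi cells could be thinned, of which 3 had Apoa1 (6.82%, 1.43 to 18.7%, an interval that reaches that of VE cells), 1 each had Apoa2, Apoa4 and Apob (2.27%, 0.0575 to 12.0%), and 0 had Apoc2 (at most 8.04%).

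Without thinning, the shares were 56.1% and 27.4% for Apoa1, 73.4% and 27% for Apob, and 25.3% and 34.7% for Apoa2. The libraries differed in the number of carrying cells and in the amount per carrying cell to an extent that varied by gene. For Apob, the share of carrying cells was 2.58 times that of VE cysts, and the mean in those cells was 1.12 times, 10.3 against 9.21 UMIs. For Apoa1 both were higher, 2.17 and 2.43 times, for Apoa4 1.65 and 2.35 times, and for Apoc2 1.95 and 1.85 times. Apom was found in 85.8% and 71.9% of cells, 1.19 times, with a mean 1.84 times as high. For Apoa2 both were lower, 0.605 and 0.681 times.

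**Figure D2:**
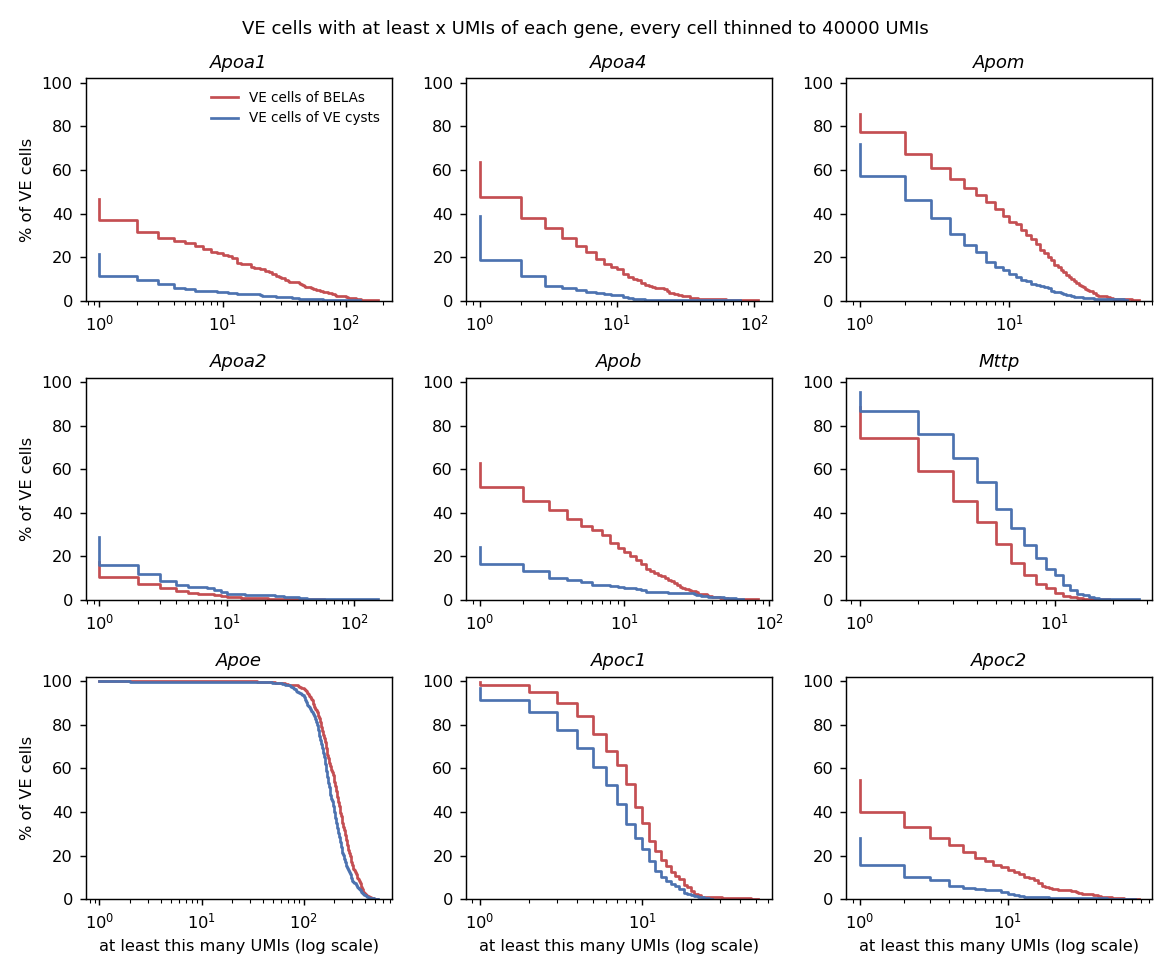
Percent of VE cells (y axis) with at least a given number of UMIs of each gene (x axis, log scale), after thinning every cell to 40000 UMIs, with 514 BELA cells and 473 VE cyst cells. The curves of the libraries run close together for Apoe and somewhat apart for Apoc1, those of Apoa1, Apoa4, Apob, Apoc2 and Apom are higher for BELAs, and those of Apoa2 and Mttp are higher for VE cysts at 1 UMI, at 29.0% against 17.5% and 95.3% against 88.3%.

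The same cells carried several of these genes at once. Of VE cells of BELAs, 159 (30.9%, 27 to 35.1%) had a UMI of all 4 of Apoa1, Apoa4, Apob and Apoc2, against 35 cells of VE cysts (7.40%, 5.21 to 10.1%), and 90 (17.5%) and 201 (42.5%) had none of the 4. These counts depend on the share of cells with each gene, which differed between the libraries. They were not set against counts for genes found independently of each other. The 159 cells held 89.9% of the Apoa1 UMIs and 75.0% of the Apob UMIs of their library, and the 35 cells held 76.7% and 67.7%. Since the cells were chosen by these genes, high shares were in part built in. Apoe was not used to choose the cells and had 36.6% of its UMIs in the 159 cells and 11% in the 35. Its mean there was 259 UMIs in BELAs, against 183 in cells with none of the 4 genes, and 288 against 167 in VE cysts. Apoa2 followed the 4 genes in both libraries: in BELAs 87.4% of its UMIs lay in the 159 cells, and in VE cysts 61.3% lay in the 35.

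Apoa1 and Apoa2 were therefore looked at cell by cell. In BELAs, 78 cells (15.2%) carried both, 162 (31.5%) Apoa1 without Apoa2 and 12 (2.33%) Apoa2 without Apoa1, so that 95.2% of the Apoa2 UMIs came from cells that also had Apoa1. In VE cysts, 56 cells (11.8%) carried both, 46 (9.73%) Apoa1 alone and 81 (17.1%) Apoa2 alone. Within the cells that carried both, mean Apoa1 was 37.4 UMIs in BELAs and 13.8 in VE cysts, and mean Apoa2 was 5.05 and 12.4 UMIs. The medians were 24.5 and 4 UMIs for Apoa1 and 2 and 3 UMIs for Apoa2. Cells with more Apoa2 than Apoa1 UMIs were 6 of the 78 in BELAs and 22 of the 56 in VE cysts. The difference in direction between the libraries was thus present in cells that carried both genes, though for Apoa2 it was small in the medians. The VE cyst library also held cells with Apoa2, at a median of 1 UMI, and no Apoa1 UMI.

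**Figure D3:**
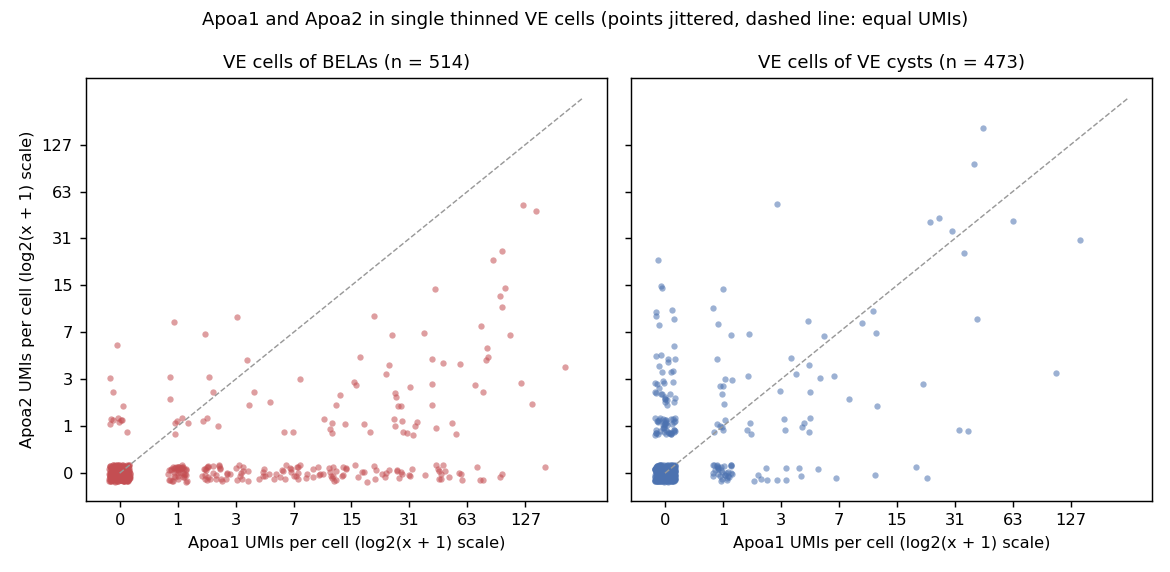
UMIs of Apoa1 (x axis) and Apoa2 (y axis) in single VE cells thinned to 40000 UMIs, on log2(x + 1) scales, with points moved slightly at random so that they do not cover each other. In BELAs nearly all cells with both genes lie under the dashed line of equal UMIs (6 of 78 lie above it), and in VE cysts 22 of 56 lie above it.

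Across single VE cells the genes moved together, including those that went opposite ways between the libraries. Among the 36 pairs of the 9 genes, 31 had a Spearman rho of at least 0.2 across VE cells of BELAs and 26 across those of VE cysts. Of all pairs of genes with a mean of at least 1 thinned UMI, 1.54% and 0.677% did. In BELAs Apoa2 was under that limit, with a mean of 0.805, and the background was not matched for level. None of the 36 pairs was at or below −0.2. The median rho of the 36 pairs was 0.39 and 0.30, against 0.0058 and 0.0047 over all pairs, and 31 of the 36 were higher in BELAs. These correlations are descriptions over cells of 1 library, which share its handling and were all thinned to 1 depth.

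Apob and Apoc2, which lie on different chromosomes, were among the tightest pairs (rho 0.67 in BELAs and 0.56 in VE cysts). In BELAs their order against Apoa1 with Apoa4 (0.65) was not stable, since with another random seed for the thinning Apoa1 and Apoa4 had 0.70 and Apob and Apoc2 0.68. In BELAs, Apoa1, Apoa4, Apob and Apoc2 were joined by rho of 0.60 or more in every pair, and in VE cysts by 0.34 to 0.56. Apom came next, with rho of 0.60 to Apoc2 and 0.57 to Apob in BELAs. Apoa2, with its opposite difference between libraries, had rho of 0.46 with Apoa1 in BELAs and 0.36 in VE cysts, and of 0.46 and 0.49 with Apoc2. Mttp, the lipid loader, had rho of 0.48 and 0.26 with its client Apob. Apoc1 stood apart: all 5 pairs under 0.2 in BELAs and 8 of the 10 in VE cysts included it. Of the 5, those with Apob and Apom lay at the limit itself, at 0.1996 each. The highest rho of Apoc1 was with Apoe, its neighbour, at 0.38 and 0.19. Among other members close together on a chromosome, Apoc1 and Apoc2 had rho of 0.31 and 0.04, and Apoa1 and Apoa4 of 0.65 and 0.34.

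**Figure D4:**
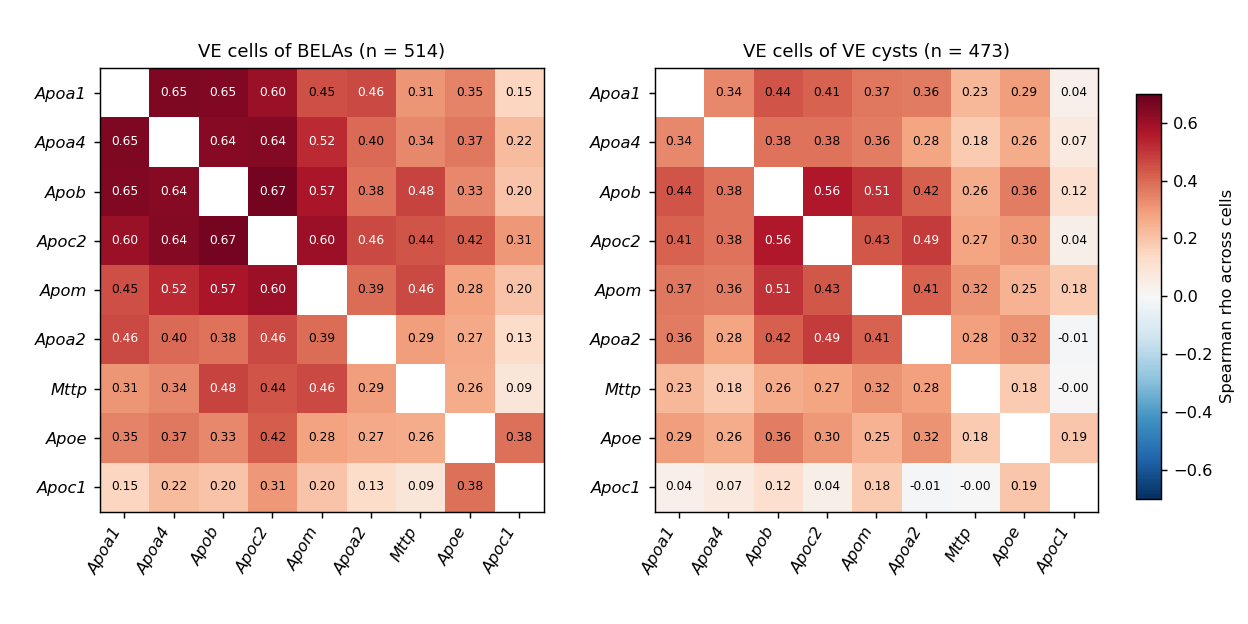
Spearman rho across VE cells for each pair of the 9 genes, in BELAs (left) and VE cysts (right), on thinned UMIs. Red marks positive values, and Apoc1, in the last row and column, is the gene with the lowest values against most others, from 0.09 to 0.38 in BELAs and from −0.01 to 0.19 in VE cysts.

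Among other genes, Ttr, which encodes the thyroid hormone carrier made by yolk sac endoderm, was the most similar in BELAs to Apoa1 (rho 0.69), Apoa2 (0.44), Apoa4 (0.65), Apob (0.69) and Apoc2 (0.62), and it remained positive in VE cysts (0.35, 0.49, 0.25, 0.41 and 0.44). Ttr itself was lower in BELAs than in VE cysts, at 718 and 1261 CPM, the direction of Apoa2 and not of the other 4. The next were Ptgds, a lipocalin-type prostaglandin synthase, for Apoa1 (0.62) and Apoa4 (0.63), the mucin Muc13 for Apob (0.65), Apoa4 (0.61) and Apoc2 (0.57), Hsd17b2, a steroid dehydrogenase, for Apoc2 (0.57), 2610528J11Rik for Apob (0.65) and Apom (0.55), and the iron carrier Trf (0.39) and the kinase Nrk (0.37) for Apoa2. Emb, a membrane protein of the immunoglobulin family, had rho of 0.61 with Apoa1 in BELAs and 0.02 in VE cysts. Ptgds stood at 181 CPM in BELAs and 7.10 in VE cysts, where its rho was 0.17 with Apoa1 and 0.23 with Apoa4.

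Apoe and Apoc1 had other neighbours. Npl, an enzyme of sialic acid breakdown, led for both (0.56 and 0.33), followed for Apoe by the glypican Gpc3 (0.52) and by Npc2 (0.51), which hands cholesterol out of lysosomes, and for Apoc1 by Atpif1 (0.32) and Bst2 (0.30). Rdx, a linker of membrane and actin, led for Apom (0.58) and Mttp (0.50). Fth1, the ferritin heavy chain, was second for Apom (0.57), and for Mttp came Cubn (0.45), a receptor that takes up apolipoprotein A-I and that was also used to assign cells, and Clic6 (0.44). In VE cysts these values were between 0.08 (Apoc1 with Atpif1) and 0.41 (Apoe with Gpc3). Of the genes of the 6 lipoprotein lists, Soat2 had the highest median rho with the 9 genes in BELAs (0.42, with 0.54 for Apob), and 0.25 in VE cysts. Pla2g12b, a secreted phospholipase-like protein tied to apolipoprotein B particles, had medians of 0.34 and 0.27, Hnf4a 0.25 and 0.11, and P4hb −0.11 and −0.23.

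VE cells were then ordered by the sum of log2(thinned UMIs + 1) over the 13 parietal markers and divided into quartiles (4 groups of nearly equal cell number), each a range of the score and not a cell type. From the lowest to the highest quartile, 6 of the 9 genes went down by 2-fold or more in BELAs, where 3.79% of all genes did, and 6 of 9 in VE cysts, where 1.17% did. Apoa1 stood at 736, 142, 87.5 and 24.2 CPM over the 4 quartiles of BELAs, and at 158, 19.7, 4.66 and 5.93 CPM in VE cysts. Apob stood at 341, 181, 93.8 and 26.8 CPM in BELAs and at 200.4, 6.99, 9.53 and 5.72 CPM in VE cysts. In BELAs Apob was lower in each successive quartile, and in VE cysts it was low from the second on. Apoa2 was lower along the score as well, from 49.6 to 6.45 CPM in BELAs and from 149 to 6.36 CPM in VE cysts. Apoe and Apoc1 differed less, with 1.06 and 1.20 times as much in the lowest as in the highest quartile of BELAs and 1.43 and 1.15 times in VE cysts. In VE cysts Apoe was lower in each successive quartile, and its rho with the parietal score was −0.32, as was that of Apoa1.

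The difference between libraries could be read within quartiles of equal rank, though the score limits were not equal (the lowest quartile ended at 32.0 in BELAs and at 48.4 in VE cysts). The log2 ratio of Apoa1, BELAs over VE cysts, was 2.19, 2.58, 3.26 and 1.42 from the lowest to the highest quartile, at least 2-fold in each. That of Apoa2 was −1.50, −0.18, −0.87 and 0.01, so that it passed 2-fold in the quartile with the least parietal RNA, where it stood at 49.6 and 149 CPM. Without the highest parietal quartile of both libraries, the log2 ratios of the 2 genes were 2.15 and −1.38. What part the parietal RNA has in the difference between libraries was not tested.

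VE cells were ordered by the AVE markers in the same way. The score reached 27.3 in BELAs and 7.23 in VE cysts, so the quartiles span unlike ranges. In BELAs, 4 of the 9 genes were at least 2-fold higher in the highest than in the lowest quartile by AVE score, where 2.47% of all genes were: Apoa1 at 571 and 70.0 CPM, Apob at 280.3 and 80.6, Apoa4 at 179 and 69.6, and Apoa2 at 28.5 and 11.2. Apoe was level, at 5630 and 5649 CPM. In BELAs the Spearman rho with the AVE score was 0.39 for Apoa1, 0.35 for Apob, 0.28 for Apoa4 and 0.11 for Apoa2. The AVE markers summed to 50.5 CPM in VE cysts against 299.5 in BELAs. In VE cysts the lowest quartile was made up of cells with none of them (132 cells had a score of 0). There 0 of the 9 genes were higher by 2-fold, where 0.174% of all genes were, with Apoa1 at 51.7 and 38.9 CPM. At so low a share over all genes, this count does not set the 9 genes apart.

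Along 15 yolk sac endoderm markers, which include Ttr, 7 of the 9 genes were at least 2-fold higher in the highest than in the lowest quartile in each library, where 3.44% of all genes were in BELAs and 1.78% in VE cysts. Apoc2 stood at 327 and 7.56 CPM in BELAs and at 104.9 and 2.10 CPM in VE cysts, and Apoa2 at 70.7 and 0.775 CPM and at 171 and 2.10 CPM. Apoe (1.45 and 1.53 times) and Apoc1 (1.19 and 1.02 times) were the exceptions. The yolk sac list itself was mixed between the libraries, with 2 of 15 higher and 1 lower in BELAs: Rbp4, the retinol carrier, stood at 97.3 and 568 CPM, in the direction of Apoa2, and Trf at 29.4 and 7.86 CPM, in that of Apoa1. The thinned UMIs of the 9 genes had a rho with a cell's depth before thinning between −0.32 (Apoe) and 0.14 in BELAs. In VE cysts this rho was between −0.03 and 0.18. With the mitochondrial share, rho was between 0.11 and 0.32 in BELAs and between 0.01 and 0.14 in VE cysts.

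**Figure D5:**
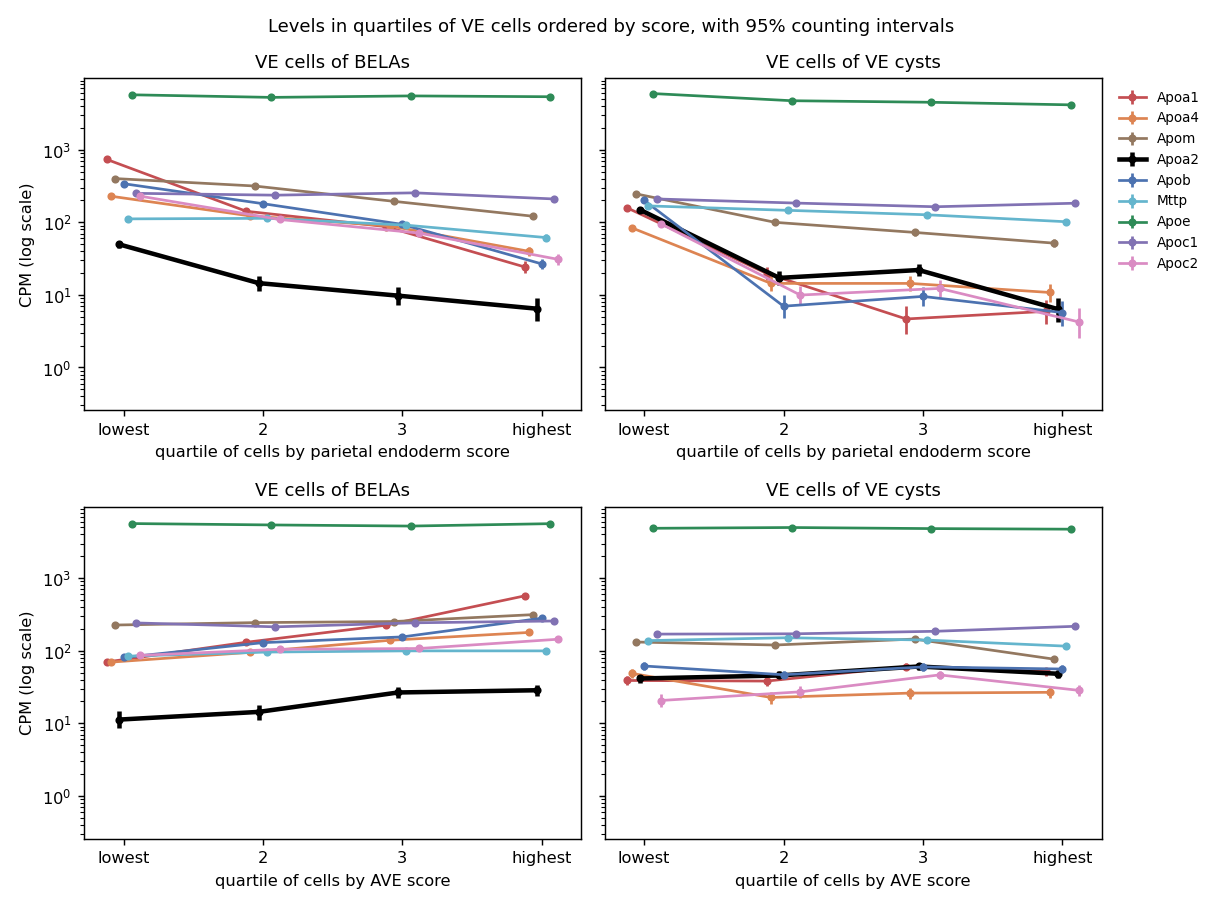
Levels of the 9 genes in CPM (log axis) in quartiles of VE cells ordered from the lowest to the highest score for parietal endoderm markers (top) and AVE markers (bottom), with 95% Poisson intervals. With the parietal score, Apoa1 falls from 736 to 24.2 CPM in BELAs and from 158 to 5.93 CPM in VE cysts while Apoe goes from 5723 to 5382 and from 5959 to 4161 CPM, and with the AVE score Apoa1 climbs from 70.0 to 571 CPM in BELAs. The black line is Apoa2.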

How the data were processed

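Single cells of BELAs, VE cysts and Epi cysts were profiled in 3 libraries, 1 per condition. Reads were demultiplexed, aligned to mm10 and collapsed to UMIs by the authors in Cell Ranger 4.0.0. Each deposited table gives unnormalised UMI counts for every gene and barcode (2220 barcodes for BELAs, 881 for VE cysts and 1076 for Epi cysts). The study's cell filters (a minimum of 4000 genes, a maximum of 10% mitochondrial UMIs) were applied to these counts and left 1410, 625 and 657 cells with 126625916, 39793263 and 40962566 UMIs. Of these, 4 cells of VE cysts and 1 of Epi cysts had equal marker sums and went to Epi. Levels, in CPM, sum a gene over the pooled cells and divide by their total, not scaled by length, since 3' counting takes 1 tag per molecule, and they are compared within a gene. In VE cells 1 UMI was worth 0.0183 CPM (BELAs) or 0.0282 CPM (VE cysts).

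Intervals are exact: Poisson for levels, conditional binomial for ratios and Clopper-Pearson for shares, at 95%, for counting error only. A level of 0 allows up to 3 UMIs. With 1 library per condition no test was made. Thinning drew 40000 UMIs per cell without replacement with a fixed seed. Correlations used numpy 2.4.6 and scipy 1.17.1 (python 3.11.15), and doublets were called with Scrublet in scanpy 1.11.5 and left out as an alternative only (33, 1 and 11 cells of BELAs, VE cysts and Epi cysts). The calculations were tested on simulated data. All 9 genes are named, and so are listed lipoprotein genes past 2-fold with at least 10 CPM in either VE group and the 3 genes most like each member in BELAs, except 1 listed gene that is not reported here. Other genes are named where a result turns on them, after their values were seen. The genes and lists were chosen with earlier results of these data known. Overlapping annotated genes on the other strand (Gm10680 at Apoa4, Gm43691 and Trmt10a at Mttp) and on the same strand (Gm44805 at Apoc2, which has no row in the tables) could affect counting. Alternatives changed the added CPM, the cell and lineage filters, doublets, scaling, thinning and the correlation. Further ones left out the 1% of VE cells with the highest level of a gene, or took the mean over cells of CPM per cell.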

Additional observations from a re-analysis of the deposited data

Results flagged for a closer look

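The log2 ratios of Apoa4 and Apob along the AVE score had opposite signs in the 2 libraries. From the lowest to the highest quartile of VE cells, the log2 ratio of Apoa4 was 1.30 in BELAs and −0.76 in VE cysts, a difference of 2.06, and that of Apob was 1.74 and −0.13, a difference of 1.86. With 1 library each the difference was not tested. In VE cysts the ratio of Apob was 0.909 (0.766 to 1.08), which takes in no change. That of Apoa4 rests on a split among tied cells, since 132 cells had a score of 0 and the lowest quartile held 119 of them, with 48.7 CPM there and 22.7 CPM in the second, and its rho with the score was −0.05. The AVE score reached 27.3 in BELAs and 7.23 in VE cysts, so the quartiles span unlike ranges.

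The Epi cyst library held 1 cell assigned to VE, which enters no comparison above. It had 81952 UMIs, with Apoe at 4100 CPM (3673 to 4563) and Apom at 403 CPM (277 to 566). Apoc1 stood at 85.4 CPM (34.3 to 176), and Apob and Mttp at 36.6 CPM each (7.55 to 107, from 3 UMIs each). All were above the pooled level of the Epi cells of that library, whose interval for Mttp ended at 7.54 CPM. Single Epi cells of that library, thinned as above, reached 5 UMIs of Apob, 5 of Mttp and 6 of Apoc1. For these genes some Epi cells were thus higher than the VE cell. Apoa1, Apoa2, Apoa4 and Apoc2 had no UMI in the VE cell, which allows up to 36.6 CPM for each.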

How the results depend on the processing

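The count of 5 genes at least 2-fold higher in VE cells of BELAs was 4 without the quartile of BELA VE cells with the highest AVE score, where Apob was at a log2 ratio of 0.93, and 5 under the other alternatives. The count of 1 gene lower (Apoa2) was 0 with 20 CPM added, where its log2 ratio was −0.94, and 1 under the others. No ratio of a gene past 2-fold changed sign, and over 12 alternatives the log2 ratios ranged from 1.41 to 2.55 for Apoa1, from −1.46 to −0.94 for Apoa2, from 0.93 to 1.65 for Apob and from −0.50 to −0.37 for Mttp. Median-of-ratios scaling changed the log2 scale by 0.11 before CPM were added, moved the median of all genes from −0.13 to −0.05, and split the calls over all genes into 213 higher and 220 lower, against 159 and 287, without moving a call among the 9 genes. With 1 CPM added, 279 and 624 genes passed, and with 20 CPM, 56 and 99. Pairs at rho of at least 0.2 numbered 28 to 33 (BELAs) and 25 to 29 (VE cysts), and the rho of Apoa1 with Apoa2 ranged from 0.40 to 0.53 and, for VE cysts, from 0.32 to 0.56. In BELAs, Apoa1 with Apoa4 had a higher rho than Apob with Apoc2 at 20000 UMIs, by Pearson, without doublets, with looser filters, with another seed and without the highest parietal quartile, and a lower one under the other alternatives. Another random seed alone moved the pair counts to 32 and 28. The alternatives without the highest parietal quartile were added after seeing the data. No paired analysis was possible because each condition was 1 library. Depth limits Apoa2 most in BELAs, with a mean of 0.805 thinned UMIs per VE cell, and Apoc2 most in VE cysts, with 1.22.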

Other observations

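Along a score of 10 genes of mitosis (G2/M), the pooled level of Apoa2 was lower by about the same factor in both libraries. That of Apoa1 was lower mainly in BELAs. Across single cells the rho of Apoa2 with this score was −0.13 in BELAs and −0.01 in VE cysts, so in VE cysts the ranks showed no such trend. The rho of Apoa1 was −0.17 and −0.04. In VE cells of BELAs, Apoa1 stood at 437 CPM in the quartile with the lowest score and at 151 CPM in that with the highest, and Apoa2 at 38.2 and 9.57 CPM, ratios of 0.346 and 0.251. In VE cysts, Apoa1 stood at 50.6 and 43.9 CPM and Apoa2 at 63.7 and 15.7 CPM, ratios of 0.866 and 0.246. Apoe stood at 6671 and 5158 CPM in BELAs and at 5060 and 4410 CPM in VE cysts. These are values of 1 library each and were not tested.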
